A study of Mus musculus with 34 samples.

Results

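The mRNA levels of 10 Wnt ligand genes of the limb bud were described in wild-type (WT) and *Hnrnpk* conditional knockout (CKO) mouse embryos. The genes were *Wnt2*, *Wnt3*, *Wnt4*, *Wnt5a*, *Wnt5b*, *Wnt6*, *Wnt7b*, *Wnt9a*, *Wnt10a* and *Wnt11*. They were taken by gene symbol, from a list chosen with earlier results of these data known. All 10 were among the 22040 genes of the deposited mRNA-seq table, and 9 were among the 12305 genes tested. Genes tested had a mean FPKM (fragments scaled by gene length and a library size) of at least 0.5 over the 6 libraries. The study asked how limb buds develop without hnRNPK, a protein that binds RNA and DNA. Limb bud cells were collected at E11.5 from 3 WT and 3 CKO samples. The CKO genotype was *Prrx1-Cre;Hnrnpk fl/fl*, and the other group was labelled *Hnrnpk* WT. Whether the WT embryos carried loxP sites or Cre is not given in the sources used here, and embryos of both sexes were used. *Prrx1-Cre* deletes in limb and skull vault mesenchyme, which leaves ectoderm, blood, vessels and muscle precursors with intact alleles, and deletion in the hindlimb may be incomplete according to the study. For the RNA-seq samples, neither the share of forelimb and hindlimb tissue nor any pooling of embryos is given. Each library held a mixture of cells, so fewer cells of a type and less RNA per cell cannot be told apart.

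Wnt ligands are secreted, lipid-modified proteins that act over short distances on Frizzled receptors and their co-receptors. In the limb bud, ligands made by the ectoderm, among them *Wnt3* and *Wnt6*, are known to act through beta-catenin, to sustain the apical ridge and to keep the mesenchyme beneath it from forming cartilage. The mesenchyme itself makes *Wnt5a*, which acts through Ror2 and the planar polarity proteins to orient cells along the outgrowing axis. Porcn and Wls load and carry the ligands out of the cell, R-spondins raise the response to them, and Dkk and Sfrp proteins hold it down.

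*Hnrnpk* was at 193, 194.6 and 185.2 FPKM in the WT libraries and at 127.1, 142 and 135.3 FPKM in the CKO libraries, with no overlap between groups (log2 fold change of -0.50, SE 0.13, limma adjusted p = 0.334, and 0.0575 with the replicate number as a block). This value covers the whole gene and all cells, not the deleted exons of Cre-expressing cells alone. The libraries held 17140887 to 24624444 reads on the listed genes. Both libraries numbered 1 stood apart from those numbered 2 and 3: the correlation of deviations from the group mean was 0.64 between WT 1 and CKO 1. It ran from -0.60 to -0.37 between a library numbered 1 and one of the other group numbered 2 or 3. Deviations within a group sum to 0, so these negative values follow in large part from the positive one. Values without both libraries numbered 1 are therefore given beside the results that rest on these libraries. At an adjusted p under 0.05 the limma fit without both called 867 genes higher and 984 lower of 12305. The main fit of all 6 libraries called 7 higher and 1 lower, so a call in the smaller fit is common. All 13 ectoderm markers and all 11 mesenchyme markers were detected in every library. In the ectoderm list 12 of 13 log2 fold changes were above 0 (median 0.26), with summed levels of 59.7 to 97.8 FPKM in WT and 66.1 to 107.8 FPKM in CKO. In the mesenchyme list 9 of 11 were below 0 (median -0.17), with summed levels of 438.5 to 538.4 FPKM in WT and 430.0 to 483.5 FPKM in CKO. *Tbx5*, a forelimb gene, was the marker called in these lists, with the block (log2 fold change of -0.93, SE 0.15, adjusted p = 0.00734). The summed level of 7 erythroid genes, mostly globins, spanned 35620 to 61830 FPKM in WT and 29100 to 138300 FPKM in CKO. The part of these shifts in the ligand values was not tested, except for the ratios to marker lists given with the results.

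Among the ligands, *Wnt5b* was the gene whose WT and CKO values did not overlap. It stood at 69.2% of its WT mean in CKO limb buds. The most abundant ligand, *Wnt5a*, and the 4 tested ligands known from ectoderm had log2 fold changes between -0.07 and 0.13, with intervals that spanned 0. FPKM are scaled by gene length, so the genes can be ranked against each other. *Wnt5a* had a mean of 28.1 FPKM over the 6 libraries, 5.35 times that of the next ligand and above it in all 6. *Wnt5b*, *Wnt11* and *Wnt6* followed at 5.24, 4.80 and 4.69 FPKM, and their libraries were interleaved, so that their order is not settled. *Wnt7b* came below them in every library at 2.06 FPKM. *Wnt4*, *Wnt3*, *Wnt2* and *Wnt9a* lay between 1.20 and 0.677 FPKM, and neighbours in this stretch changed places between libraries. *Wnt10a* was the lowest in every library at a mean of 0.171 FPKM, from 4 to 11 reads per library.

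**Figure D1:**
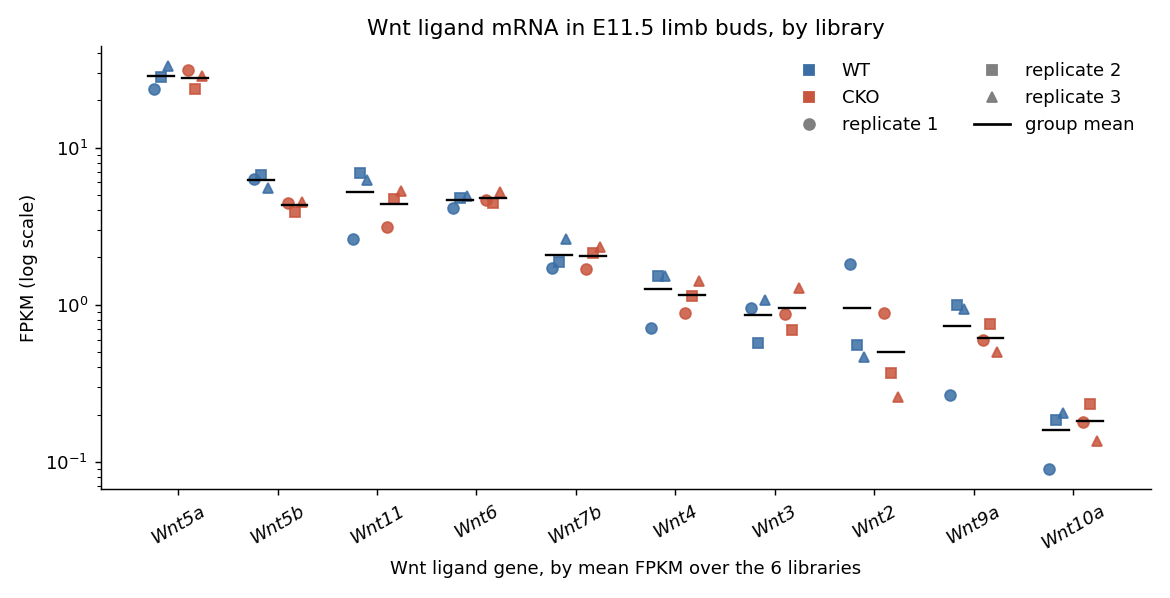
FPKM of the 10 ligands on a log axis, ordered by the mean over the 6 libraries, with one point per library and bars at the group means (3 WT and 3 CKO libraries). *Wnt5a* lies between 23.7 and 33.0 FPKM in all libraries, the *Wnt5b* points of the groups are separate, and the replicate 1 points of *Wnt2* (high) and *Wnt11* (low) stand apart from the others of their group.

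*Wnt5b*, the closest relative of *Wnt5a* and known from the growth plate, where it affects how chondrocytes mature, lies on chromosome 6 (GRCm38, 119432531 to 119544347, minus strand). RefSeq places 3 transcription starts in it. The 250 bases before the first and the last of them are shown because this ligand separated the groups, and those before the first start of *Wnt11* because they hold the same TCF/LEF match. They read from 5′ to 3′ on the strand of the gene, in the RefSeq annotation of GRCm38.p6. Capitals mark matches to CTTTGAT, the core letters of the TCF/LEF factors that act with beta-catenin, and to CCCTCCC, a C-rich run of the kind that hnRNPK binds, on either strand.
Wnt5b first start (chr6:119544348-119544597, minus strand): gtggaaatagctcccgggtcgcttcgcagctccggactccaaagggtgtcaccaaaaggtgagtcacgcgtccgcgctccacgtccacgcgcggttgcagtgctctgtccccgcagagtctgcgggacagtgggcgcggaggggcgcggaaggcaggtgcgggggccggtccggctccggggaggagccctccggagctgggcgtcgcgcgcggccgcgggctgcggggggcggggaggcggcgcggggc
Wnt5b last start (chr6:119449387-119449636, minus strand): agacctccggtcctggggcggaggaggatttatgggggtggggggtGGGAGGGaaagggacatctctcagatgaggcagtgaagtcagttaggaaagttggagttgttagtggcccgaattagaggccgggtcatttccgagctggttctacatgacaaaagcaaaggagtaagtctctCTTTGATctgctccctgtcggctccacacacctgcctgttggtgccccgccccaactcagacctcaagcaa
Wnt11 first start (chr7:98834862-98835111, plus strand): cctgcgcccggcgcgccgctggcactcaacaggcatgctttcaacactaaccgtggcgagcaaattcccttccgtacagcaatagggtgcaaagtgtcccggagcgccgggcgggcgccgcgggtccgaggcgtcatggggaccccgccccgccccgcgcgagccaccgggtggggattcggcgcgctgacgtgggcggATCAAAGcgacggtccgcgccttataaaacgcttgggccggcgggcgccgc
The window before the last *Wnt5b* start held 1 match to each motif, the CTTTGAT match 71 to 65 bases before the start. The window before its first start, rich in G and C (75.2%), held neither. The first *Wnt11* window held CTTTGAT on the other strand, 51 to 45 bases before the start. RefSeq windows were found for 7 of the 10 ligands (10 windows). CTTTGAT occurred in 2 of these 10 windows (2 genes). CCCTCCC occurred in 4 of the 10 (4 genes, *Wnt3*, *Wnt5b*, *Wnt6* and *Wnt9a*). Of 20007 promoter windows of the same length, 2.75% held CTTTGAT and 22.9% held CCCTCCC. These are letter matches, not sites of binding, and which start the libraries used cannot be read from values per gene.

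Of the ligands of the mesenchyme, *Wnt5a* drives the lengthening of the bud. Its level was 23.7, 28.3 and 33.0 FPKM in WT and 31.2, 23.8 and 28.4 FPKM in CKO. The groups overlapped, and WT libraries held both the lowest and the highest of the 6 values. The log2 fold change was -0.02 (SE 0.16, 95% interval -0.40 to 0.36, limma adjusted p = 0.980), on 3342 to 5633 reads per library. With the libraries numbered 2 and 3 alone the value was -0.23 (adjusted p = 0.242).

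*Wnt5b* was at 6.33, 6.69 and 5.56 FPKM in WT and at 4.43, 3.92 and 4.52 FPKM in CKO (means of 6.20 ± 0.576 and 4.29 ± 0.326, SD, n = 3). Every CKO library was below every WT library. The log2 fold change was -0.52 (SE 0.13, 95% interval -0.82 to -0.22, unadjusted p = 0.0042 and adjusted p = 0.324 in limma). With the replicate number as a block the same change passed the threshold (adjusted p = 0.0458, 95% interval -0.79 to -0.25). The 3 numbered pairs gave log2 differences of -0.50, -0.76 and -0.29. The value without both libraries numbered 1 was -0.53 (adjusted p = 0.0088), in a fit that called 867 genes higher and 984 lower of 12305. Over 18 alternative settings the log2 fold change ran from -0.63 to -0.44 and the adjusted p from 0.0088 to 0.950, and 3 settings passed. The call thus depended on the block and on the libraries kept, while the direction did not change in any of these settings.

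*Wnt11*, a ligand of the beta-catenin-independent kind that guides cell movement, followed the replicate number. It was at 2.61, 6.90 and 6.22 FPKM in WT and at 3.13, 4.70 and 5.27 FPKM in CKO. Both libraries numbered 1 were low, at 0.399 times the mean of the other 2 in WT and 0.627 times in CKO. The log2 fold change over all 6 libraries was -0.18 (SE 0.37, 95% interval -1.03 to 0.68, limma adjusted p = 0.930). Libraries 2 and 3 alone gave -0.39 (adjusted p = 0.0456), the lowest adjusted p in a range of 0.0456 to 1 over its alternatives. Pair 1 went the other way, at 0.25 on the log2 scale.

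*Wnt2*, best known from lung mesoderm and the placenta, was lower in the CKO library of every pair. It was at 1.82, 0.556 and 0.468 FPKM in WT and at 0.882, 0.371 and 0.260 FPKM in CKO. Libraries numbered 1 were the high ones here, at 3.56 times the mean of the other 2 in WT and 2.80 times in CKO. The groups overlapped for that reason, since CKO 1 stood above WT 2 and WT 3. The log2 fold change was -0.70 (SE 0.54, 95% interval -1.96 to 0.56, limma adjusted p = 0.810). It shrank to -0.15 without WT 1 and -0.40 without CKO 3, and grew to -1.12 without CKO 1. Without both libraries numbered 1 it was -0.57 (limma adjusted p = 0.225). The block narrowed the interval to -1.23 to -0.18, and the adjusted p of 0.146 still missed the threshold. The gene rested on 14 to 74 reads per library.

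*Wnt9a*, which marks forming synovial joints, was at 0.267, 1.004 and 0.937 FPKM in WT and at 0.598, 0.753 and 0.504 FPKM in CKO. WT 1 was the lowest of the 6 libraries and WT 2 the highest. The fitted difference on the log2 scale was -0.07 (SE 0.43, 95% interval -1.07 to 0.92, limma adjusted p = 0.976). The pairs gave 0.93, -0.37 and -0.78, so pair 1 went against the other two. Without both libraries numbered 1 the log2 fold change was -0.58 (adjusted p = 0.103), which did not pass either.

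**Figure D2:**
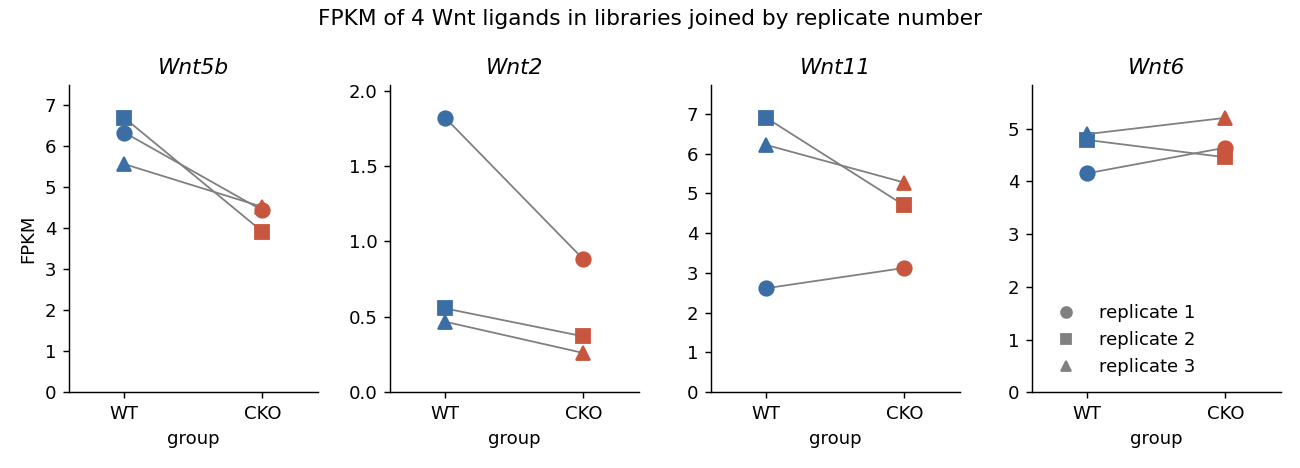
FPKM of *Wnt5b*, *Wnt2*, *Wnt11* and *Wnt6* in the 3 WT and 3 CKO libraries, each vertical axis from 0, with lines joining libraries that share a replicate number. All 3 lines fall for *Wnt5b* and *Wnt2*, the *Wnt11* line of replicate 1 lies below the other two, and *Wnt6* shows lines in both directions.

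Of the ligands of the ectoderm, *Wnt6* was the most abundant, at 4.15, 4.78 and 4.90 FPKM in WT and 4.64, 4.46 and 5.20 FPKM in CKO. Its 6 values spanned 1.25-fold, the smallest span among the ligands. The log2 fold change was 0.05 (SE 0.13, 95% interval -0.25 to 0.35, limma adjusted p = 0.949), and it was -0.06 after rescaling without globin genes, so no direction is given. *Wnt10a*, a ligand of tooth and hair development, lies 6.19 kb downstream of *Wnt6* on the same strand of chromosome 1. It was at 0.0899, 0.186 and 0.204 FPKM in WT and 0.179, 0.233 and 0.136 FPKM in CKO, from 26 and 27 reads per group in all. The neighbours thus differed 27.4-fold in mean FPKM, and *Wnt10a* was too low for the test (log2 fold change of 0.14, SE 0.25, when genes were not filtered). *Wnt7b*, known from lung and kidney epithelium as well as limb ectoderm, was at 1.72, 1.88 and 2.63 FPKM in WT and 1.68, 2.13 and 2.34 FPKM in CKO. Its groups overlapped, with a log2 fold change of -0.01 (SE 0.21, 95% interval -0.49 to 0.47, adjusted p = 0.994) that turned to 0.06 with quantile normalization.

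*Wnt3*, the ectodermal ligand that mouse limbs need to form an apical ridge, was at 0.956, 0.570 and 1.07 FPKM in WT and 0.880, 0.696 and 1.28 FPKM in CKO. The groups overlapped, and library 2 was the lowest and library 3 the highest in both. Its log2 fold change was 0.13 (SE 0.30, 95% interval -0.56 to 0.81, limma adjusted p = 0.941). *Wnt4*, known from kidney and gonad and from limb joints, was at 0.714, 1.52 and 1.53 FPKM in WT and 0.883, 1.15 and 1.41 FPKM in CKO. Library 1 was the lowest in both groups, and the log2 fold change was -0.07 (SE 0.31, 95% interval -0.80 to 0.65, adjusted p = 0.970). These intervals included the log2 fold change of -0.52 fitted for *Wnt5b*. With the block they narrowed to -0.32 to 0.57 for *Wnt3* and -0.50 to 0.35 for *Wnt4*. Neither included -0.52, which *Wnt4* missed narrowly, and the *Wnt3* interval still included a rise of that size.

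**Figure D3:**
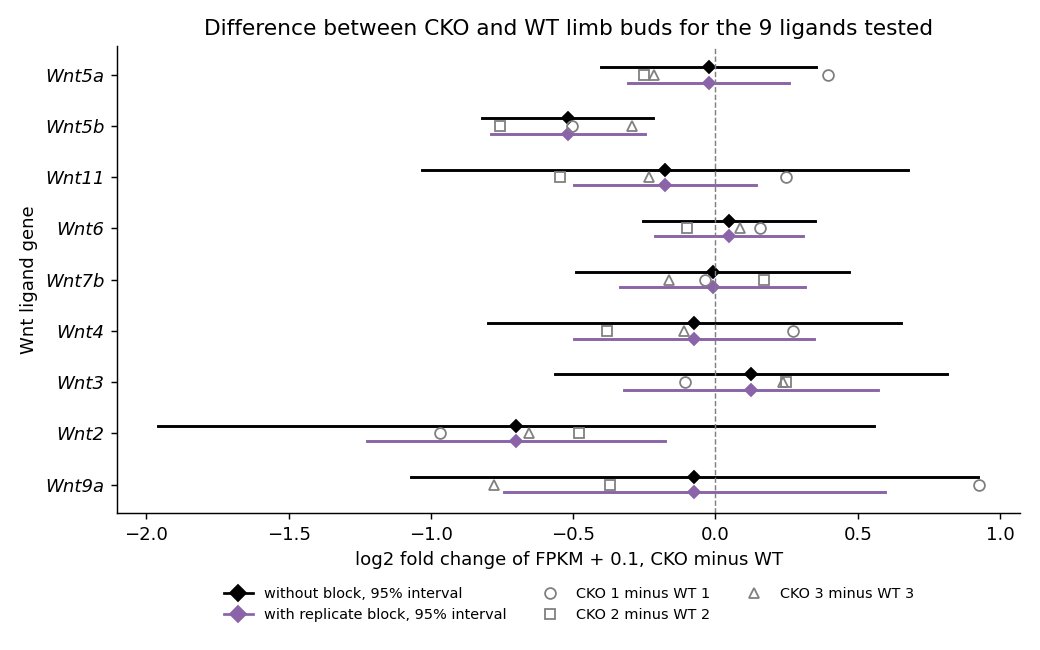
Log2 fold changes of FPKM + 0.1 (CKO minus WT) for the 9 tested ligands, with 95% intervals without (black) and with (purple) the replicate block and open symbols for the numbered pairs. The *Wnt5b* intervals lie below 0 in both fits, the *Wnt2* interval in the blocked fit alone, and all others span 0.

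Counted over the 9 ligands tested, limma called none in either direction at an adjusted p under 0.05, against 0.065% of all genes tested, and limma voom on recovered reads without a block called none either. At an unadjusted p under 0.05 there was 1, *Wnt5b*, against 8.31% of all genes. With the replicate block there was 1 of 9, again *Wnt5b*, against 2.81% of all genes in both directions and 1.68% that were lower. Groups without overlap were found for 1 of 9 ligands and for 14.5% of all genes. Lower values in all 3 pairs were found for 2 of 9 (*Wnt2* and *Wnt5b*) and for 21.3% of all genes. The median log2 fold change of the 9 was -0.07, beside 0.0048 over all genes tested. These shares are close to those of the whole table, apart from the blocked call, where 1 gene makes the count.

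The same *Wnt5b* values can be set against those of other ligands, which is a description of its place and no separate evidence. It was above *Wnt6* in 3 of 3 WT libraries and in 0 of 3 CKO libraries, with mean log2 ratios of FPKM of 0.42 ± 0.214 and -0.15 ± 0.074 (SD; exact two-sided permutation test, p = 0.1, the smallest that 3 against 3 allows). Against *Wnt5a* the mean log2 ratio was -2.17 ± 0.342 in WT and -2.66 ± 0.112 in CKO (p = 0.1 in the same exact test). *Wnt5b* made up 12.5% ± 2.56 of the summed FPKM of the 10 ligands in WT and 9.20% ± 0.0781 in CKO, again without overlap (exact p = 0.1). *Wnt5a* made up 56.1% ± 2.19 and 59.4% ± 4.28 (exact p = 0.4). The joint share of *Wnt5a*, *Wnt5b* and *Wnt11*, ligands known mostly for signalling without beta-catenin, was 78.8% ± 1.51 in WT and 78.1% ± 1.65 in CKO, with overlapping groups (exact p = 0.7). The ligands summed to 42.4, 52.4 and 56.5 FPKM in WT and to 48.5, 42.2 and 49.3 FPKM in CKO (exact p = 0.4). They held 94.3% to 95.9% of the FPKM of all Wnt genes of the table.

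Set against the marker lists of their tissues, *Wnt5b* was again the ligand whose groups did not overlap. The log2 level of *Wnt5b* minus the mean log2 level of the 11 mesenchyme markers was -2.36 ± 0.109 in WT and -2.68 ± 0.0881 in CKO, a difference of -0.32 (exact p = 0.1). The difference was smaller than the log2 fold change of -0.52 without the markers. Against the median of the markers it was -0.46, so its size depended on how the markers were summarized. For *Wnt5a* the same difference was 0.17 (exact p = 0.4, and 0.03 against the median of the markers), for *Wnt11* 0.02 (p = 1 in the exact test), for *Wnt9a* 0.12 (exact p = 0.9) and for *Wnt2* -0.50 (exact p = 0.6). Relative to the 13 ectoderm markers, all 5 ectodermal ligands were below 0 on the log2 scale. The differences were -0.10 for *Wnt3*, -0.30 for *Wnt4*, -0.18 for *Wnt6*, -0.24 for *Wnt7b* and -0.09 for *Wnt10a*, with exact p between 0.2 and 0.8, and they share 1 set of markers. Within numbered pairs, *Wnt7b* gave -0.20, -0.29 and -0.22, and it was the ectodermal ligand with 3 pairs of 1 sign (exact sign-flip test, p = 0.25, the smallest that 3 pairs allow). With 1 library left out, the value turned above 0 for *Wnt3*, *Wnt6* and *Wnt10a*. A p of 0.1 is the lowest that this exact test can give. The mesenchyme list held *Tbx5* (log2 fold change of -0.93) and *Hoxd13* (0.20), and the ectoderm list held *Fgf8* (0.16). The study reported *Hoxd13* and *Fgf8* as lower in CKO limb buds by qPCR. The lists thus hold genes tied to the knockout, and how far these moved the ratios was not tested.

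Of 82 other genes of Wnt signalling in the table, grouped by role, 66 were tested. Their median log2 fold change was -0.07, with 22 above 0 and 44 below, beside 6264 above and 6041 below over all 12305 genes tested, and limma called none at an adjusted p under 0.05 (1 higher and 4 lower at an unadjusted p under 0.05; none called by voom without a block). Over all genes, 350 were higher and 672 lower at an unadjusted p under 0.05. With the block 1 pathway gene was higher and 3 were lower, beside 139 and 207 of all genes. Ligands outside the 10 were scarce. Of 9, *Wnt7a* alone was tested, the dorsal ectoderm signal. It was at 0.986 ± 0.160 FPKM in WT and 0.964 ± 0.162 FPKM in CKO (log2 fold change of -0.03, adjusted p = 0.980). *Wnt2b*, too low for the test, was at 0.483 ± 0.0227 FPKM in WT and 0.351 ± 0.0369 FPKM in CKO, with no overlap between groups. None of 3 tested secretion genes, 16 receptor genes, 15 genes of the beta-catenin branch or 10 of the planar polarity branch was called with the block. The median log2 fold changes of these 4 roles were 0.08, -0.05, -0.12 and -0.02.

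The blocked calls were in the secreted modulators and in the targets. *Rspo1*, an R-spondin that raises Wnt responses by keeping Frizzled at the cell surface, was at 1.92, 1.70 and 0.994 FPKM in WT and 0.798, 0.701 and 0.649 FPKM in CKO, with no overlap (log2 fold change of -0.96, SE 0.26, adjusted p = 0.358, and 0.0281 with the block). *Rspo4*, of the same family, was at 6.88, 1.85 and 1.97 FPKM in WT and 3.73, 1.48 and 1.01 FPKM in CKO. As with *Wnt2*, its libraries numbered 1 were the high ones, and each pair fell (log2 fold change of -0.69, SE 0.59, adjusted p = 0.836, and 0.0393 with the block). Its log2 fold change was -0.09 without WT 1, -0.31 without CKO 3 and -1.20 without CKO 1. With libraries 2 and 3 alone it was -0.61 (limma adjusted p = 0.0290), and that of *Rspo1* was -0.86 (adjusted p = 0.0107). *Dkk2*, which binds the Lrp co-receptors, was at 1.77, 5.37 and 5.64 FPKM in WT and 1.51, 2.55 and 2.46 FPKM in CKO. As with *Wnt11*, its libraries numbered 1 were low (log2 fold change of -0.81, SE 0.43, adjusted p = 0.692, and 0.0312 with the block). Without them the *Dkk2* change was -1.11 (adjusted p = 9.09e-07), it was -1.34 without WT 1 alone and -0.53 without WT 3 alone, and its adjusted p ran up to 1 over the alternatives, as those of *Rspo1*, *Rspo4* and *Sp5* did. In all, 5 of 6 tested agonists and receptor turnover genes and 7 of 11 tested inhibitors had log2 fold changes below 0, with medians of -0.23 and -0.16.

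*Sp5*, a direct beta-catenin target, went the other way, from 0.555, 0.298 and 0.546 FPKM in WT to 1.47, 0.696 and 0.919 FPKM in CKO. The groups did not overlap (log2 fold change of 0.97, SE 0.32, adjusted p = 0.480, and 0.0458 with the block), on 15 to 56 reads per library. Its WT mean of 0.466 FPKM was below the filter of 0.5, and its CKO mean was 1.03 FPKM. It was thus tested only because of the group where it was high, which limits what the call can show. In limma voom with the block its adjusted p was 0.0597, which did not pass. Libraries 2 and 3 alone gave a log2 fold change of 0.83 (limma adjusted p = 0.0414). The other feedback targets stayed nearer 0, such as *Axin2*, the usual readout of beta-catenin signalling, at 12.7 FPKM in WT and 12.8 FPKM in CKO (log2 fold change of -0.02, SE 0.22, adjusted p = 0.989). The median of the 9 targets tested was 0.06. *Rspo3*, *Dkk3* and the kinase gene *Gsk3a* had an unadjusted p under 0.05, with log2 fold changes of -0.38, -0.48 and -0.39 (adjusted p = 0.583, 0.552 and 0.549, and 0.152, 0.142 and 0.117 with the block). Libraries 2 and 3 alone called all 3 of them, in a fit that called 867 genes higher and 984 lower of 12305. Voom with the block called *Gsk3a*, beside 112 genes higher and 668 lower of 12294.

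**Figure D4:**
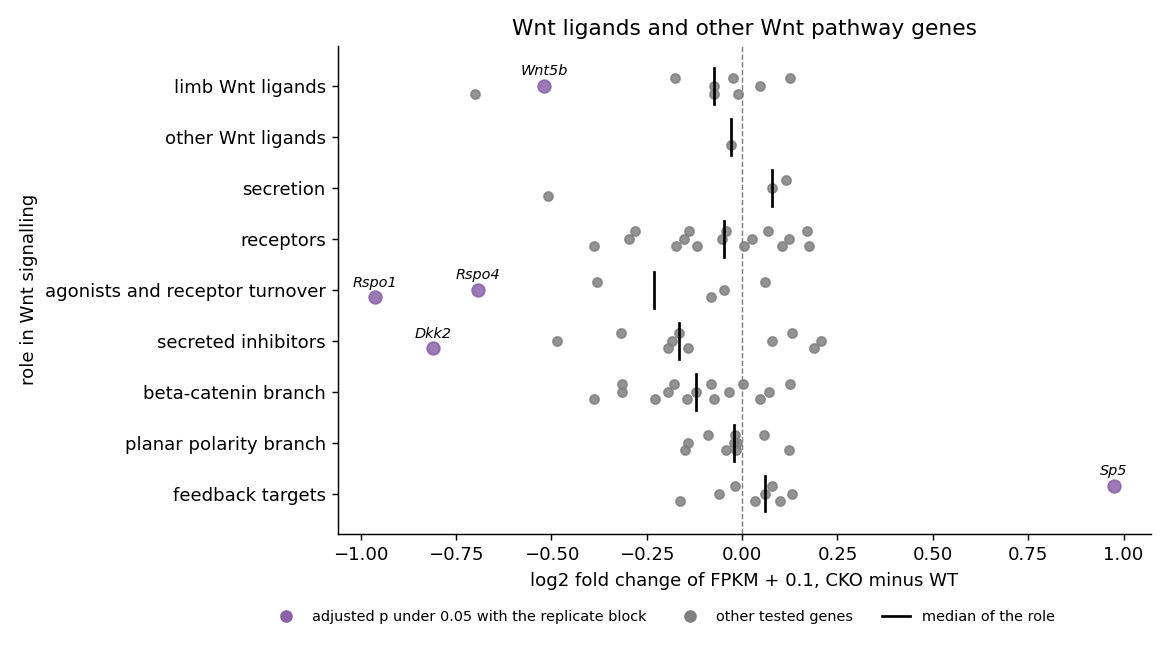
Log2 fold changes of FPKM + 0.1 (CKO minus WT) for the tested ligands and the other tested Wnt pathway genes by role, with 1 point per gene and vertical bars at the medians; a gene with 2 roles is drawn in both. Purple points, the genes past the threshold with the replicate block, are *Wnt5b*, *Rspo1*, *Rspo4* and *Dkk2* below 0 and *Sp5* above 0.

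Across the 6 libraries, the genes most like *Wnt5a* among 74 ligand and pathway genes were *Nkd2*, an inhibitor of Dishevelled, *Celsr1*, a planar polarity cadherin, and *Pygo1*, a partner of beta-catenin. Pearson correlations of log2 levels were 0.91, 0.80 and 0.77, and *Wnt6* came next at 0.68. All genes of a library share its preparation and depth, and the values are a description. *Wnt5a*, *Wnt7b* and *Wnt11* share 358, 324 and 364 exon bases with a gene on the opposite strand. So do *Gsk3a*, *Rspo3*, *Hnrnpk* and *Axin2*, with 820, 404, 330 and 209 bases. The kit was stranded, but the strand setting of the counting is not given in the sources used here, so reads of those neighbours may be included.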

How the data were processed

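Limb bud RNA of 3 WT and 3 CKO samples (E11.5) was used; the chromatin samples of the series (ATAC-seq, Hi-C, CUT&RUN) were not analysed here. The authors deposited FPKM per gene from a stranded mRNA library kit; the submitters' processing notes name cutadapt 2.5, HISAT2 2.1.0, featureCounts 1.6.3 and mm10. Columns headed KO were matched to CKO samples by replicate number. Multiplying FPKM by the merged exon length (GENCODE vM21) gave whole reads for 94.4% to 95% of low values (within 0.1). These give the depth, 17140887 to 24624444 reads. The read number of a gene bears on its counting error and does not measure the spread between samples. The library size behind the FPKM was below the reads on the listed genes in CKO 2 (19146570 against 21190300) and CKO 3 (23848048 against 24624444). The FPKM were thus not scaled by depth alone, and limma voom was run on the recovered reads without such a factor.

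log2(FPKM + 0.1) was fitted with limma 3.58.1 in R 4.3.3 (lmFit, eBayes with trend, two-sided, Benjamini-Hochberg over the 12305 genes whose mean FPKM reached 0.5), without a block. With this pseudocount, fold changes of low genes come out too small. The methods of the study give fold and p thresholds but no model. Same-numbered libraries deviated together (r = 0.64, 0.44 and 0.27 for numbers 1, 2 and 3, all over 0.1), so the numbers were taken to pair samples, although no source says what they mark and r was 0.49 between WT 2 and CKO 3 and 0.31 between WT 3 and CKO 2, so numbers 2 and 3 were not told apart; nothing says that replicates came from separate litters, and p-values measure the spread between these samples. Fits with the replicate block, other scalings, pseudocounts and filters, limma voom on the recovered reads, and libraries left out were the 18 alternatives. Levels relative to markers and shares were compared by exact two-sided permutation tests over libraries, and, as chosen after seeing the data, by sign flips within numbered pairs. The fitting script was tested on simulated data.

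All 10 ligands were named, with the 3 genes most like *Wnt5a*. So were pathway genes called in limma with or without the block or at an unadjusted p under 0.05. *Axin2*, *Wnt6* in the likeness ranking, *Wnt2b* and *Wnt7a* were added after their values were seen. The members and lists were chosen with earlier results of these data known. Promoter sequences are from RefSeq (GRCm38.p6), without the bases after the start.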

Additional observations from a re-analysis of the deposited data

How the results depend on the processing

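Of the 9 tested ligands, *Wnt2* and *Wnt5b* kept the direction of their log2 fold change in every setting run. The number of ligands called lower was 0 without the replicate block, 1 with the replicate block (*Wnt5b*), 2 with replicates 2 and 3 alone (*Wnt5b* and *Wnt11*) and 1 in limma voom with the replicate block; it was 0 in each fit that left out 1 library. Of the other pathway genes, 1 higher and 3 lower were called with the replicate block, 1 and 15 with replicates 2 and 3 alone, and 0 and 8 in voom with the block; of all genes, these fits called 867 higher and 984 lower of 12305, and 112 and 668 of 12294. The replicate block changed no other call among the ligands. The *Wnt6* log2 fold change turned to -0.057 after rescaling without globin genes, to -0.0069 with replicates 2 and 3 alone, to -0.054 in voom and to -0.058 in voom with the block, and that of *Wnt7b* to 0.0057 with median-ratio scaling, 0.063 with quantile normalization and 0.0030 with replicates 2 and 3 alone. Rescaling without globin genes and voom moved the median of all genes to -0.0998 and -0.0937. Relative to the median of the mesenchyme markers, *Wnt9a* was at -0.020, *Wnt11* at -0.12 and *Wnt5a* at 0.030. The cause of these turns was not tested.

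Leaving out each library in turn, log2 fold changes ran from -0.12 to 0.31 for *Wnt3*, -0.41 to 0.094 for *Wnt4*, -0.15 to 0.092 for *Wnt5a*, -0.025 to 0.094 for *Wnt6*, -0.13 to 0.16 for *Wnt7b*, -0.59 to 0.21 for *Wnt9a* and -0.61 to 0.075 for *Wnt11*; that of *Wnt5b* ran from -0.59 to -0.46, and that of *Wnt2* from -1.12 to -0.15, its lowest size without WT replicate 1. The CKO minus WT difference in level relative to markers ran from -0.85 to 0.049 for *Wnt2*, -0.37 to 0.22 for *Wnt3*, -0.38 to 0.0045 for *Wnt6*, -0.39 to 0.39 for *Wnt9a*, -0.30 to 0.10 for *Wnt10a* and -0.41 to 0.31 for *Wnt11*. The difference in the share of the summed FPKM, in percentage points, ran from -1.60 to 0.132 for *Wnt2*, -0.056 to 0.528 for *Wnt3*, -0.342 to 0.354 for *Wnt4*, -0.0037 to 0.792 for *Wnt7b*, -0.440 to 0.204 for *Wnt9a* and -2.66 to 0.838 for *Wnt11*.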
